A study of Mus musculus with 3 samples.

Results

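The levels of 35 immediate early and heat shock genes were examined in single cells of the mouse aorta. They were chosen by symbol, as a fixed list, from the 32285 genes counted in each cell, and all 35 were found. Of these, 29 are immediate early genes or their close companions and 6 encode heat shock proteins. The cells came from gene replacement mice whose own Apoe gene had been exchanged at its locus for the human APOE2, APOE3 or APOE4 gene, on a C57BL/6J background. All animals were males that started a Western diet (42% fat, 0.2% cholesterol) at 12 weeks of age and ate it for 16 weeks, so there was no chow-fed or wild-type group. Whole aortas, from the arch to the branching of the iliac arteries, were cleaned of fat, minced and digested warm with collagenases, elastase, hyaluronidase and DNase. The cell suspensions were pooled by genotype, from 6 mice for APOE2, 5 for APOE3 and 7 for APOE4, and each pool gave 1 droplet library whose transcripts were counted by UMI, a unique molecular identifier added to each captured molecule. A cell cannot be traced to its mouse, so genotype, pool, digestion and library cannot be told apart, and no difference between genotypes was tested.

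Immediate early genes are switched on within minutes of a growth factor, stress or mechanical signal, without new protein synthesis. Kinases reach factors already bound at their promoters, such as SRF with its ternary complex partners at CArG boxes and CREB family proteins at cyclic AMP response elements, and the first products include the AP-1, Egr and Nr4a transcription factors and the phosphatases and RNA decay factors that shut the response down again. Heat shock genes are driven by heat shock factors that bind repeats of the GAA triplet when unfolded protein accumulates, and their products are chaperones. In arteries both groups respond to injury and stretch, and both are also known to be induced while cells are being freed from a tissue with enzymes.

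Cells were kept if they had at least 200 detected genes and under 20% mitochondrial UMIs. This gave 11772 cells for APOE2, 6737 for APOE3 and 8248 for APOE4, with 124926887 to 168310501 UMIs per library and a median of 12047, 17618 and 13522 UMIs per cell. Pairs of libraries shared 14 to 27 cell barcodes. Clusters were made without the 35 genes and without the other genes of the same pathways, so that these could not decide the classes. Smooth muscle marker cells numbered 8645, 5209 and 6225 (in the order APOE2, APOE3, APOE4, used throughout), fibroblast-like cells 1412, 842 and 1195 and macrophage-like cells 395, 127 and 170. RNA of smooth muscle was also present in the other classes: the 10 smooth muscle markers took 5.48%, 6.24% and 5.78% of the UMIs of smooth muscle marker cells, 0.674%, 1.05% and 0.840% in fibroblast-like cells and 0.703%, 1.53% and 1.03% in macrophage-like cells.

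Of the 35 genes, 28 had an entry in the RefSeq promoter windows of GRCm38.p6, each reaching from 250 bases before the gene's start to 50 bases after it. They were searched on both strands for the CArG box bound by SRF, for TGACG (the core of cyclic AMP response elements and related AP-1 sites) and for TTCNNGAA and GAANNTTC (2 GAA units of a heat shock element on opposite strands, pointing apart in the first and facing each other in the second, which was added after the printed windows were seen). TGACG stood in 14 of the 28 windows, against 20.8% of all 32851 windows, and its 12 immediate early holders were Atf3, Btg1, Btg2, Csrnp1, Dusp1, Egr2, Fos, Fosb, Ifrd1, Junb, Nr4a1 and Nr4a2. The CArG box was found in the windows of Egr2 and Zfp36 (1.63% of all windows) and TTCNNGAA in those of Egr2 and Hsph1 (8.52% of all windows). GAANNTTC stood in 6 of the 28 windows (7.86% of all windows), and its holders were Fosl2, Jun, Dnaja1, Hspa1a, Hspa1b and Hsph1. Those of Hspa1a, Hspa1b and Hsph1 are among the printed windows seen before this motif was added. Its count therefore cannot be set against all windows. A match describes letters in a window and is not a shown binding site. A window without a match does not show that the gene lacks the site, since sequence beyond the window was not searched. Genes without a window were not searched at all. Sequences are printed for Fos, the AP-1 subunit that was highest in smooth muscle marker cells, for Zfp36 and Dusp1, 2 feedback genes that behaved differently, and for Hsph1, each 5′ to 3′ on the gene's strand with TGACG, the CArG box or TTCNNGAA in capitals. By the GENCODE vM21 annotation of the same build, Fos (ENSMUSG00000021250) lies on chromosome 12 from 85473890 to 85477273, Zfp36 (ENSMUSG00000044786) on chromosome 7 from 28376784 to 28380253, Dusp1 (ENSMUSG00000024190) on chromosome 17 from 26505590 to 26562128 and Hsph1 (ENSMUSG00000029657) on chromosome 5 from 149614287 to 149636376. Each window is set on the RefSeq start, and covers the proximal promoter and the first transcribed bases from there. For Zfp36 and Dusp1 the GENCODE gene reaches farther upstream than that start, so their windows lie within its bounds. The GENCODE gene of Hsph1 also reaches upstream of that start but ends within the window, so the match at -33 given below lies inside it. The Fos window (chr12:85473640-85473939, plus strand) holds TGACG at -129 and -66, counted from the start. In the Zfp36 window (chr7:28379179-28379478, minus strand) the CArG box begins at -58. The Dusp1 window (chr17:26508423-26508722, minus strand) has TGACG at -191, -143 and -140, the last on the opposite strand and overlapping the one before it. In the Hsph1 window (chr5:149636287-149636586, minus strand) TTCNNGAA occurs at -33 and at 37.
Fos: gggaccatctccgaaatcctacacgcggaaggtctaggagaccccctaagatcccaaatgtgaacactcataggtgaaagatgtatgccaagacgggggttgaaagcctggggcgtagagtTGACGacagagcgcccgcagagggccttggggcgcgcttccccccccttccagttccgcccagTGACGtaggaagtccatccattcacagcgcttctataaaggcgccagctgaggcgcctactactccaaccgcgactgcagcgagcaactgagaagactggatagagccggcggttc
Zfp36: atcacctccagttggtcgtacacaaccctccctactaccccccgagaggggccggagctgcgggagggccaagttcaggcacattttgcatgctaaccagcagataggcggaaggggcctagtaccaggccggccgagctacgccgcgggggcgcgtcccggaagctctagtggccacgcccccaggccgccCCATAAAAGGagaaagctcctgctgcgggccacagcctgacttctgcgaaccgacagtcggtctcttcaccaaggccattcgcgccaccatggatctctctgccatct
Dusp1: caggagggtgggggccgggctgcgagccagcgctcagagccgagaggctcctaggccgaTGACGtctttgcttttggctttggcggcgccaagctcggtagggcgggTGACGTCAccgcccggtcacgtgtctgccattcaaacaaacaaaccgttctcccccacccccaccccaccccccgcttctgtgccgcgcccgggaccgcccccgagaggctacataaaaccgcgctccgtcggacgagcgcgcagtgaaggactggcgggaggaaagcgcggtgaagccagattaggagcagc
Hsph1: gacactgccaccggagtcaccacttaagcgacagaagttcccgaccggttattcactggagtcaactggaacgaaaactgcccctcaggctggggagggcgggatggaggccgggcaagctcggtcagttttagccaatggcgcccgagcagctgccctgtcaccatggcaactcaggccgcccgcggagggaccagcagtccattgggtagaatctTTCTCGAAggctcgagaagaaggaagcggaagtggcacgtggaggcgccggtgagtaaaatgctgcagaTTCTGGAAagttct

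Hspa1a and Hspa1b, the pair of inducible HSP70 genes that lie next to each other on chromosome 17, have almost the same window (chr17:34972107-34972406 and chr17:34959189-34959488, both on the minus strand, from RefSeq, GRCm38.p6). Hspa1a (ENSMUSG00000091971) lies on chromosome 17 from 34969190 to 34972156 and Hspa1b (ENSMUSG00000090877) from 34956436 to 34959238. The windows are identical at 296 of 300 positions (98.7%), with a longest shared run of 201 bases. They are shown because the genes are known as near-identical copies, though their transcripts were not compared here. Reads of the pair may not be told apart by the counting, so each gene's own level is uncertain. The capitals mark the 4 positions that differ, at -207, -204, -2 and 26.
Hspa1a: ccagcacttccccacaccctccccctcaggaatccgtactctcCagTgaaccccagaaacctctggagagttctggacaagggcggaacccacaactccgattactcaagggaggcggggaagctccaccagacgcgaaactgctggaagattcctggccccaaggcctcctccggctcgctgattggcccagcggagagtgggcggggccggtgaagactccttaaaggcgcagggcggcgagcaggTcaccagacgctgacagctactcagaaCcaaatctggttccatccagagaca
Hspa1b: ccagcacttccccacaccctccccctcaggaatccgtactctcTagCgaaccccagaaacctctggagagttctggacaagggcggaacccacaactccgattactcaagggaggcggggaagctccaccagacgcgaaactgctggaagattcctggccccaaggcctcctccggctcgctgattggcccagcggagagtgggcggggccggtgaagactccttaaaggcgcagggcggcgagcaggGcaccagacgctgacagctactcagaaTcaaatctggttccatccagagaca

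The first question was how much of each cell class's RNA these genes make up. The 29 immediate early genes took 1.22%, 1.40% and 2.28% of all UMIs in smooth muscle marker cells, 0.840%, 0.884% and 1.80% in fibroblast-like cells and 1.79%, 2.41% and 2.35% in macrophage-like cells. The APOE4 library was the highest in smooth muscle marker and fibroblast-like cells, and APOE3 was slightly above it in macrophage-like cells. The 6 heat shock genes took 0.594%, 0.770% and 0.817% in smooth muscle marker cells, 0.459%, 0.462% and 0.662% in fibroblast-like cells and 1.22%, 1.87% and 1.32% in macrophage-like cells. For both groups of genes, macrophage-like cells were the highest of these 3 classes in every library. The class with the least of this RNA was the erythroid-like cells (66, 4 and 27 cells), at 0.142%, 0.0521% and 0.0537%, where the APOE3 value rests on 19 UMIs.

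**Figure D1:**
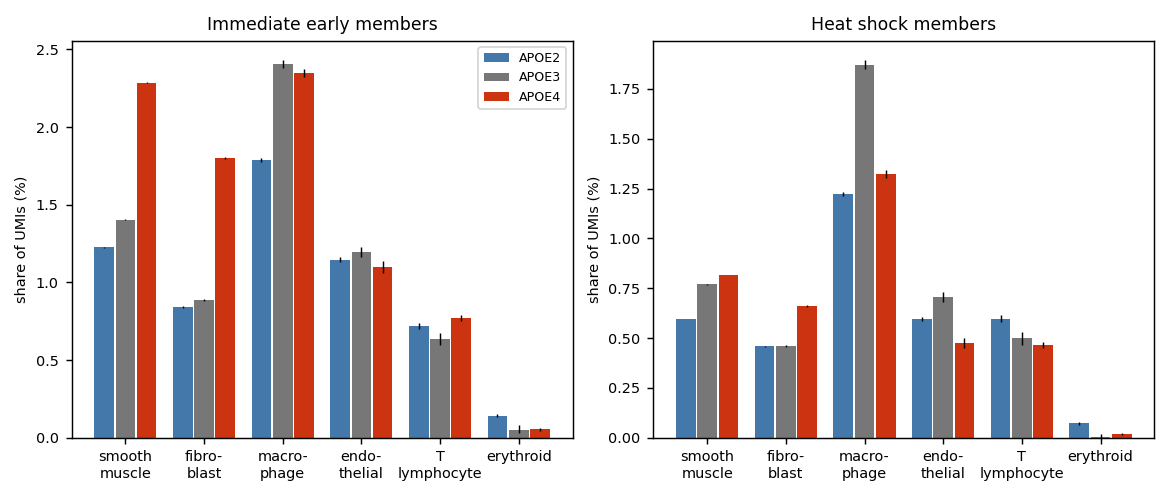
Share of UMIs (%) taken by the 29 immediate early genes and by the 6 heat shock genes, each summed over the cells of a class, for the APOE2, APOE3 and APOE4 libraries. In smooth muscle marker cells the immediate early share goes from 1.22% in APOE2 to 2.28% in APOE4, while in macrophage-like cells the heat shock share is highest in APOE3, at 1.87%.

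Endothelial-like cells (274, 75 and 60) had an immediate early share of 1.15%, 1.20% and 1.10% and a heat shock share of 0.596%, 0.706% and 0.474%, so that here APOE4 was the lowest library. They form a cluster of low depth (median of 3151 to 3221 UMIs per cell) that changed in size with the clustering, and are given as a description only. T lymphocyte-like cells (111, 16 and 94) had an immediate early share of 0.716%, 0.637% and 0.770%. A planned comparison of T lymphocyte-like with smooth muscle marker cells was not run, because APOE3 held fewer than the 30 cells set as the minimum.

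The second question was which cell class carries which of these genes. For each class and library the UMIs of all cells were added up, and a gene's level was scaled to a fixed total of UMIs (CPM). Classes were compared by edgeR's quasi-likelihood test over 14763 genes with the library as a block (n = 3 libraries per class, and Benjamini-Hochberg adjusted p under 0.05 as the call). The fit also held the endothelial-like cells. A class difference was thus set against the variation of class differences over the 3 pools, estimated from more than the 2 classes compared. Each difference below is a log2 fold change ± SE. In fibroblast-like cells, 18 of the 35 genes were lower than in smooth muscle marker cells and 0 were higher. Over all genes 23.0% were called lower and 28.3% higher, and the median log2 fold change was -0.63 for the 35 genes and 0.06 for all. DESeq2 also called 0 higher, and none of the 35 was higher at an unadjusted p under 0.05. In macrophage-like cells, 15 were higher and 7 lower, against 30.1% and 32.3% of all genes, with a median of 0.43 for the 35 genes and -0.11 for all. Both comparisons use the same smooth muscle sums. Without the APOE3 library the fibroblast-like count was 13 lower, and the macrophage-like count of higher genes was 9. With only the 2 compared classes in the fit, the fibroblast-like count was 26 lower. The shares of all genes are given for the main setting only, so the counts under these alternatives cannot be set against them.

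**Figure D2:**
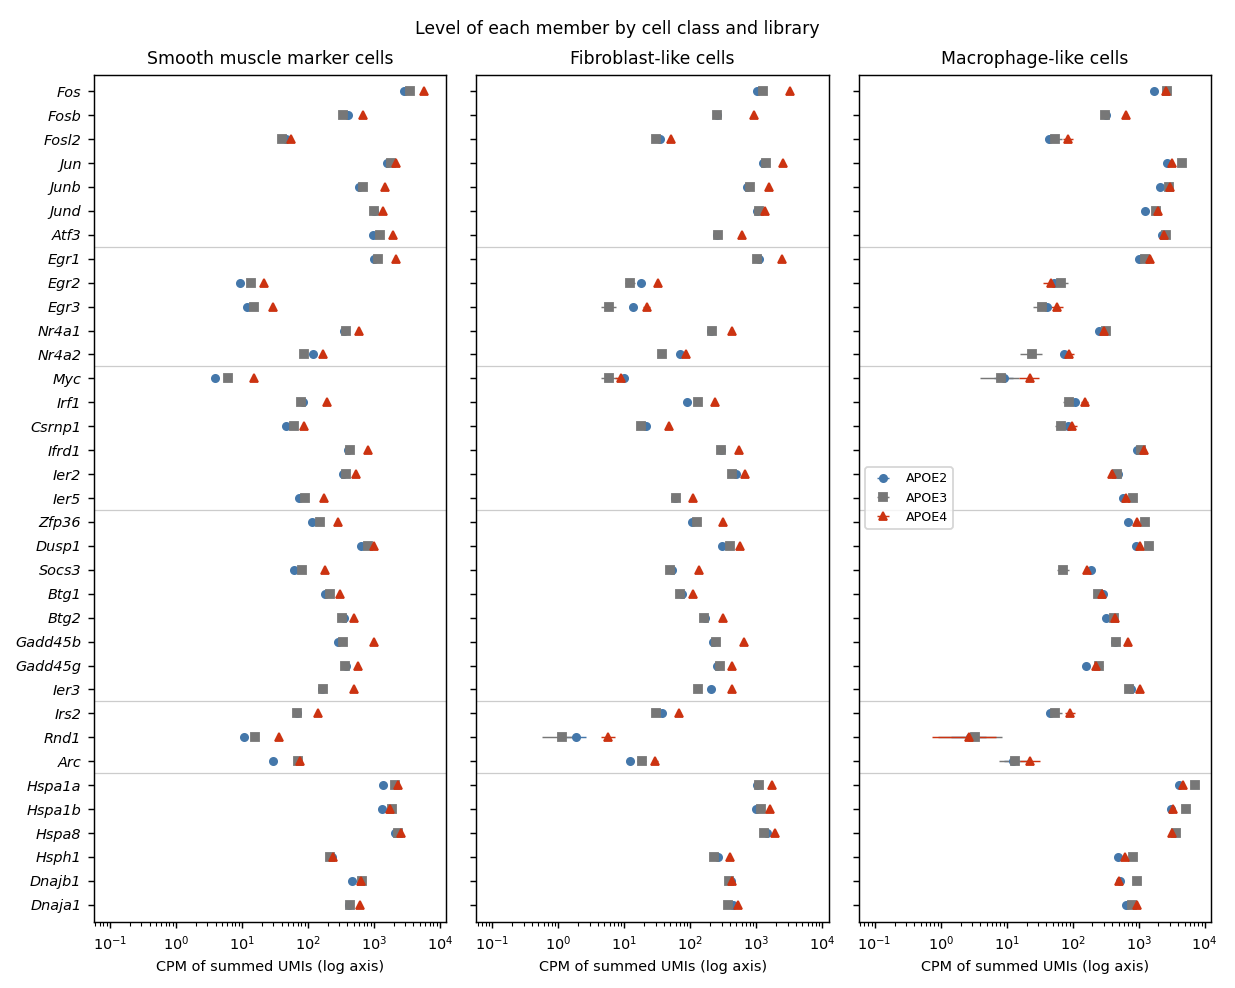
Level of each of the 35 genes (CPM of summed UMIs, log axis) in smooth muscle marker, fibroblast-like and macrophage-like cells, with 1 point per library and an exact Poisson 95% interval that covers counting error only. Fos in smooth muscle marker cells runs from 2831 to 5688 CPM, with APOE4 the highest, and Rnd1 is lower in both of the other classes.

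AP-1 is a dimer of Fos and Jun family proteins, and smooth muscle marker cells had the highest Fos. Fos stood at 2830.5, 3508 and 5688 CPM there, 1032, 1273.5 and 3246 in fibroblast-like cells and 1692, 2676 and 2627 in macrophage-like cells. It was lower than in smooth muscle marker cells in both other classes (fibroblast-like -1.35 ± 0.25, adjusted p = 0.000616; macrophage-like -0.78 ± 0.25, adjusted p = 0.0149), and within each library as well. The macrophage-like values lay below all smooth muscle values, whereas the fibroblast-like value of APOE4 reached into the smooth muscle range. Atf3, a stress-induced factor that pairs with Jun, was at 979, 1259 and 1939 CPM in smooth muscle marker cells, 257, 262 and 608 in fibroblast-like cells and 2282, 2584 and 2416 in macrophage-like cells. The 3 classes did not overlap, with fibroblast-like cells the lowest (-2.08 ± 0.26, adjusted p = 2.41e-05) and macrophage-like cells the highest (0.83 ± 0.25, adjusted p = 0.0125). The macrophage-like call for Atf3 was lost under 4 of the alternatives tried.

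Junb, a Jun family member that often restrains growth, reached 2142, 2855 and 3000.1 CPM in macrophage-like cells, against 599.7, 685 and 1458 in smooth muscle marker cells and 719, 796 and 1573 in fibroblast-like cells. The macrophage-like level was above the smooth muscle level without overlap (1.59 ± 0.26, adjusted p = 0.000134), and the fibroblast-like level was not called (0.03 ± 0.25, adjusted p = 0.938). Neutrophil-like cells (53, 10 and 7), which were not tested, had Junb at 2525, 2174 and 3565 CPM. Jun itself was at 2679, 4557 and 3233 CPM in macrophage-like cells, 1605, 1837 and 2195 in smooth muscle marker cells and 1277, 1388 and 2572 in fibroblast-like cells, higher in macrophage-like cells (0.85 ± 0.28, adjusted p = 0.0171) and not called in fibroblast-like cells (-0.28). Its macrophage-like values also lay above every smooth muscle value. Jund, which is made in most resting cells, was at 1257, 1852 and 1951 CPM in macrophage-like cells, 1019, 996 and 1378.5 in smooth muscle marker cells and 1026, 1105 and 1382 in fibroblast-like cells and was higher in macrophage-like cells (0.53 ± 0.14, adjusted p = 0.00675), although the ranges overlapped and the call was lost under 3 of the alternatives.

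The other Fos relatives were more even. Fosb was at 405, 348 and 692 CPM in smooth muscle marker cells, 259, 251 and 919 in fibroblast-like cells and 317, 312 and 654 in macrophage-like cells, and was called in neither comparison (-0.33 and -0.25). Fosl2 was at 46.3, 40.6 and 56.2 CPM in smooth muscle marker cells, 35.03, 30.4 and 50.8 in fibroblast-like cells and 43.9, 53.2 and 84.8 in macrophage-like cells. It was lower in fibroblast-like cells (-0.47 ± 0.16, adjusted p = 0.022), a call lost under 3 of the alternatives, and was not called in macrophage-like cells (0.25).

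Among the Egr zinc finger factors and the Nr4a orphan nuclear receptors, Egr2 and Egr3 were highest in macrophage-like and the Nr4a genes in smooth muscle marker cells, of the 3 classes compared. This did not extend to every class. B lymphocyte-like cells (38, 10 and 275), which were not tested, had Egr3 at 65.8, 62.9 and 66.7 CPM and Nr4a1 at 450.1, 402.9 and 575.6 CPM. Egr2, which macrophages use during differentiation, was at 51.6, 67.4 and 46.5 CPM in macrophage-like cells, 9.45, 13.9 and 21.4 in smooth muscle marker cells and 17.9, 12.4 and 32.1 in fibroblast-like cells (1.94 ± 0.28, adjusted p = 4.79e-05 for macrophage-like cells). Egr3 was at 40.8, 34.9 and 58.6 CPM in macrophage-like cells, 11.9, 15.5 and 29.8 in smooth muscle marker cells and 13.4, 5.84 and 21.9 in fibroblast-like cells (1.26 ± 0.30, adjusted p = 0.00269). For both genes the macrophage-like libraries lay above all smooth muscle libraries, and the fibroblast-like level was not called (0.33 and -0.62).

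Egr1, the most used marker of the immediate early response, was close to level across the classes, at 1019, 1177 and 2156 CPM in smooth muscle marker cells, 1094, 1018 and 2428 in fibroblast-like cells and 1022, 1249.6 and 1512 in macrophage-like cells (-0.11 and -0.19, neither called). Nr4a1 was at 349, 384 and 594 CPM in smooth muscle marker cells, 207, 217 and 423 in fibroblast-like cells and 253, 320.3 and 303 in macrophage-like cells, lower in both classes (fibroblast-like -0.83 ± 0.18, adjusted p = 0.00164; macrophage-like -0.60 ± 0.18, adjusted p = 0.011). Nr4a2 was at 120.1, 88.3 and 171 CPM in smooth muscle marker cells, 70.8, 37.5 and 85.9 in fibroblast-like cells and 73.0, 24.1 and 89.5 in macrophage-like cells, and was also lower in both (fibroblast-like -1.15 ± 0.24, adjusted p = 0.00149; macrophage-like -1.09 ± 0.26, adjusted p = 0.00275). The fibroblast-like values of Nr4a2 lay below all smooth muscle values, while those of Nr4a1 overlapped at the APOE4 library.

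Of the other transcription regulators, Ier5 differed most. Ier5, a nuclear protein that acts on heat shock factor and growth signalling, was at 571, 828 and 650.4 CPM in macrophage-like cells, 72.6, 89.9 and 177 in smooth muscle marker cells and 59.0, 60.8 and 109.9 in fibroblast-like cells. Its macrophage-like level was higher without overlap (2.62 ± 0.32, adjusted p = 1.29e-05). Ifrd1, a transcriptional coregulator of differentiation, was at 941, 1083 and 1225 CPM in macrophage-like cells, 403, 435 and 819.5 in smooth muscle marker cells and 296, 290.5 and 541 in fibroblast-like cells, higher in macrophage-like cells (0.98 ± 0.24, adjusted p = 0.00314) and lower in fibroblast-like cells (-0.71 ± 0.24, adjusted p = 0.0247); it shares its strand with an overlapping annotated gene, Gm17024, so its count is uncertain.

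Csrnp1, a nuclear factor of the Axud family, was at 46.4, 62.9 and 87.7 CPM in smooth muscle marker cells, 21.2, 18.2 and 46.9 in fibroblast-like cells and 84.7, 67.4 and 99.0 in macrophage-like cells. It was lower in fibroblast-like cells (-1.42 ± 0.20, adjusted p = 6.71e-05) and not called in macrophage-like cells (0.35), where its count is uncertain because it overlaps the macrophage gene Cx3cr1 on the same strand. Myc, Irf1 and Ier2 were called in neither comparison. Irf1, an interferon-induced factor, was at 85.7, 78.0 and 197 CPM in smooth muscle marker cells, 88.9, 130.03 and 237 in fibroblast-like cells and 108, 88.2 and 152 in macrophage-like cells. Ier2, a small nuclear protein, was at 345, 385 and 532 CPM in smooth muscle marker cells, 489, 431 and 687 in fibroblast-like cells and 494, 468 and 399 in macrophage-like cells. Myc, which drives growth, was at 3.91, 6.14 and 15.1 CPM in smooth muscle marker cells, 9.88, 5.94 and 8.93 in fibroblast-like cells and 9.1, 8.32 and 22.2 in macrophage-like cells.

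The feedback genes split between classes. Zfp36 (tristetraprolin), which marks AU-rich mRNAs for decay and whose window above carries the CArG box, was at 681, 1265 and 949 CPM in macrophage-like cells, 118, 151 and 288 in smooth muscle marker cells and 107, 126 and 316 in fibroblast-like cells. All macrophage-like libraries lay above all smooth muscle and fibroblast-like libraries (2.43 ± 0.29, adjusted p = 9.21e-06), and the fibroblast-like level was not called (-0.21). Ier3, which limits NF-kappaB and survival signalling, followed the same order at 759, 703 and 1035.5 CPM in macrophage-like cells, 162, 167 and 494 in smooth muscle marker cells and 203, 131 and 430.3 in fibroblast-like cells (1.73 ± 0.28, adjusted p = 0.000127 for macrophage-like cells). These 2 genes were the only feedback genes called higher in macrophage-like cells. Both were also high in the untested neutrophil-like cells, with Zfp36 at 550, 656 and 698 CPM and Ier3 at 1922, 574 and 1948 CPM.

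Dusp1, the nuclear phosphatase that switches off MAP kinases, was at 640.4, 825 and 1007 CPM in smooth muscle marker cells, 300.4, 395 and 561 in fibroblast-like cells and 927, 1440.1 and 1057 in macrophage-like cells. It was lower in fibroblast-like cells without overlap (-1.14 ± 0.24, adjusted p = 0.0016) and not called in macrophage-like cells (0.43); an annotated gene, AC122252.1, overlaps it on the same strand. Btg1 and Btg2, which slow proliferation and bring deadenylases to mRNAs, also lay lower in every fibroblast-like library. Btg1 was at 184, 217 and 305 CPM in smooth muscle marker cells, 74.3, 70.2 and 112 in fibroblast-like cells and 286, 246 and 276 in macrophage-like cells (fibroblast-like -1.62 ± 0.21, adjusted p = 3.7e-05). Btg2 was at 355, 325 and 499.7 CPM in smooth muscle marker cells, 165, 160.1 and 316 in fibroblast-like cells and 323, 430.1 and 436 in macrophage-like cells (fibroblast-like -1.06 ± 0.23, adjusted p = 0.00213). Neither was called in macrophage-like cells (0.18 and -0.03).

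Gadd45b and Gadd45g bind a stress kinase upstream of p38 and JNK. Gadd45g was lower in both classes, at 373.5, 370.4 and 585.5 CPM in smooth muscle marker cells, 257, 287.5 and 426 in fibroblast-like cells (-0.61 ± 0.18, adjusted p = 0.0111) and 159, 255 and 229 in macrophage-like cells (-1.08 ± 0.18, adjusted p = 0.000195). Gadd45b was at 291, 342 and 1012.5 CPM in smooth muscle marker cells, 219.7, 242 and 653 in fibroblast-like cells and 440.1, 451 and 680.0 in macrophage-like cells, lower in fibroblast-like cells (-0.68 ± 0.21, adjusted p = 0.0147) with overlapping ranges and not called in macrophage-like cells (0.10). The fibroblast-like calls of both Gadd45 genes were lost under 3 alternatives each. Socs3, which blocks cytokine receptors that signal through JAK and STAT, was called in neither comparison, at 62.8, 82.0 and 185 CPM in smooth muscle marker cells, 53.7, 50.1 and 138 in fibroblast-like cells and 188, 72.4 and 166 in macrophage-like cells.

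Rnd1, Arc and Irs2 were lower in both fibroblast-like and macrophage-like cells than in smooth muscle marker cells. Rnd1, an atypical small GTPase that loosens actin fibres, was at 11.0, 15.8 and 36.1 CPM in smooth muscle marker cells, 1.86, 1.13 and 5.68 in fibroblast-like cells and 2.8, 3.33 and 2.69 in macrophage-like cells (fibroblast-like -3.01 ± 0.28, adjusted p = 1.61e-06; macrophage-like -2.68 ± 0.42, adjusted p = 0.0001). Its macrophage-like values rest on 12, 4 and 4 UMIs and its fibroblast-like values on 31, 11 and 70. They amount to 7.12% to 16.9% of the smooth muscle level in fibroblast-like cells and 7.46% to 25.5% in macrophage-like cells, where the summed smooth muscle markers themselves stood at 12.3% to 16.8% and 12.8% to 24.5% of theirs. In endothelial-like cells, given as a description only, Rnd1 was above the smooth muscle level of each library. It was at 39.0, 29.6 and 50.8 CPM there, on 69, 13 and 15 UMIs.

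Arc, best known from synapses, was at 29.9, 71.6 and 75.3 CPM in smooth muscle marker cells, 12.2, 18.4 and 29.3 in fibroblast-like cells and 12.4, 13.3 and 22.9 in macrophage-like cells (fibroblast-like -1.69 ± 0.25, adjusted p = 8.89e-05; macrophage-like -1.77 ± 0.31, adjusted p = 0.000271). Irs2, the adaptor that carries insulin and IGF signals, was at 68.3, 68.8 and 141 CPM in smooth muscle marker cells, 37.4, 30.5 and 67.3 in fibroblast-like cells and 46.2, 54.1 and 92.2 in macrophage-like cells (fibroblast-like -1.19 ± 0.13, adjusted p = 5.04e-06; macrophage-like -0.57 ± 0.13, adjusted p = 0.00262). Arc did not overlap between smooth muscle marker cells and either other class, and Irs2 did not overlap between smooth muscle marker and fibroblast-like cells. The macrophage-like values of Arc rest on 53, 16 and 34 UMIs. They amount to 41.3%, 18.6% and 30.4% of the smooth muscle level, where the summed smooth muscle markers stood at 12.8%, 24.5% and 17.8% of theirs.

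Of the 6 heat shock genes, 5 were higher in macrophage-like cells and 3 were lower in fibroblast-like cells, against 30.1% and 23.0% of all genes. A list of 24 further heat shock and co-chaperone genes, given below, had 4 higher and 10 lower in macrophage-like cells. In fibroblast-like cells it had 1 higher and 17 lower. Hspa1a was at 4111, 7179 and 4695 CPM in macrophage-like cells, 1396, 2132 and 2334 in smooth muscle marker cells and 1022, 1112 and 1723 in fibroblast-like cells (macrophage-like 1.40 ± 0.24, adjusted p = 0.00021; fibroblast-like -0.74 ± 0.23, adjusted p = 0.018). Hspa1b was at 3054, 5234 and 3281 CPM in macrophage-like cells, 1341, 1869 and 1754 in smooth muscle marker cells and 1003, 1187 and 1624 in fibroblast-like cells, higher in macrophage-like cells (1.15 ± 0.23, adjusted p = 0.000836) and not called in fibroblast-like cells (-0.52). Both had their macrophage-like libraries above all smooth muscle libraries. Over these classes and libraries there were 0.937 to 1.43 UMIs of Hspa1a for each of Hspa1b, and the ratio was below 1 in APOE3 fibroblast-like cells alone.

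Hsph1, the large HSP110-type nucleotide exchange factor, was at 492, 826 and 618 CPM in macrophage-like cells, 234, 218 and 237 in smooth muscle marker cells and 261, 233 and 407 in fibroblast-like cells (1.42 ± 0.26, adjusted p = 0.000428 for macrophage-like cells, not called in fibroblast-like cells at 0.23). Hspa8, the chaperone that all cells make without stress, was at 3401, 3725.5 and 3191 CPM in macrophage-like cells, 2085, 2370.0 and 2577 in smooth muscle marker cells and 1447, 1324 and 1906.5 in fibroblast-like cells, higher in macrophage-like cells (0.51 ± 0.16, adjusted p = 0.0121) and lower in fibroblast-like cells (-0.75 ± 0.16, adjusted p = 0.00146). The 3 classes did not overlap for Hspa8, but its macrophage-like call was lost under 5 of the alternatives.

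The J-domain co-chaperones, which deliver clients to HSP70, differed from each other. Dnaja1 was at 641, 799.5 and 939 CPM in macrophage-like cells, 424, 437 and 619 in smooth muscle marker cells and 438, 375 and 529.6 in fibroblast-like cells, and was higher in macrophage-like cells without overlap (0.64 ± 0.17, adjusted p = 0.00513). Dnajb1 was at 531, 958 and 497 CPM in macrophage-like cells, 464, 674 and 645.5 in smooth muscle marker cells and 421, 385 and 428 in fibroblast-like cells, lower in fibroblast-like cells (-0.67 ± 0.21, adjusted p = 0.0195) and not called in macrophage-like cells (0.07). The single highest Dnajb1 value was that of the APOE3 macrophage-like cells.

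**Figure D3:**
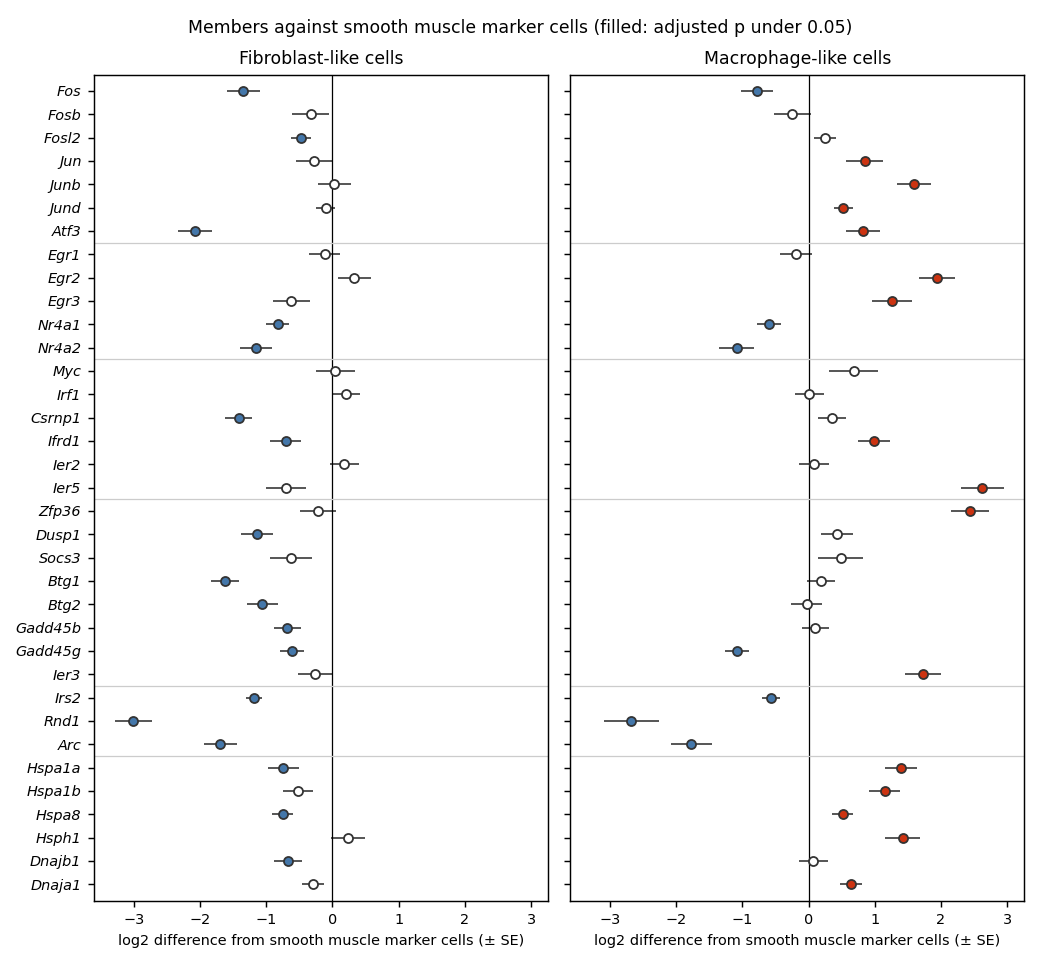
Log2 fold change of each of the 35 genes in fibroblast-like and in macrophage-like cells against smooth muscle marker cells (edgeR, bars ± SE, filled where the adjusted p is under 0.05). No gene is called higher in fibroblast-like cells, while Ier5 (2.62) and Zfp36 (2.43) lie farthest to the right in macrophage-like cells and Rnd1 (-3.01 and -2.68) farthest to the left in both.

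Other genes of the same pathways were counted with the same test. Of 27 further immediate early genes tested, 5 were higher and 11 lower in fibroblast-like cells, and 13 were higher and 6 lower in macrophage-like cells. Of 24 further heat shock and co-chaperone genes, 1 was higher and 17 lower in fibroblast-like cells, and 4 were higher and 10 lower in macrophage-like cells. Of 15 regulators of immediate early genes, such as Srf, Creb1 and MAP kinases, 4 were higher and 3 lower in fibroblast-like cells, and 7 were higher and 2 lower in macrophage-like cells. Of all genes, 28.3% were higher and 23.0% lower in fibroblast-like cells, and 30.1% and 32.3% in macrophage-like cells. Among the 3 heat shock factor genes, 1 was lower in macrophage-like cells and the others were not called.

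The third question was how the genes differed between the genotype libraries within a class. With 1 library per genotype, this is a description of 3 libraries: the log2 ratio of CPM is given with an exact conditional binomial 95% interval in parentheses, which covers counting error only and not the variation between mice, pools or library preparations. Genes with a mean of at least 10 CPM and at least 50 UMIs over the 3 libraries were used, and a ratio of 1.5-fold was taken as the line. A gene could pass this filter through 1 high library. Egr3 in fibroblast-like cells and Myc in macrophage-like cells reached the mean of 10 CPM only with APOE4 counted. The immediate early genes were higher in APOE4 than in APOE3 in smooth muscle marker cells (28 of 28 used) and in fibroblast-like cells (27 of 27 used), while in macrophage-like cells 18 of 28 were. These counts take any ratio above 1. They were not made over all genes of a class, so they cannot be set against them. The ratio of APOE4 to APOE3 for their summed UMIs was 1.63-fold in smooth muscle marker cells, 2.04-fold in fibroblast-like cells and 0.975-fold in macrophage-like cells. For the 6 heat shock genes it was 1.06-fold, 1.43-fold and 0.706-fold. All ratios of APOE2 and APOE4 to APOE3 share the APOE3 library, and whether the classes differ in these ratios was not tested.

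In smooth muscle marker cells, 20 of the 34 genes used were at least 1.5-fold higher in APOE4 than in APOE3 and 0 lower, while 2.98% of all 7983 genes were higher and 0.752% lower by that much. Against APOE2, 24 were higher in APOE4 and 0 lower (3.21% and 2.73% of all genes). Between APOE2 and APOE3, 0 were higher in APOE2 and 2 lower (1.68% and 1.19% of all genes). The median log2 ratio of the 34 genes was 0.63 for APOE4 to APOE3 and -0.20 for APOE2 to APOE3, where that of all genes was -0.09 and 0.02. Myc was too low to be used here.

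Fibroblast-like cells showed the same pattern for APOE4. Of the 33 genes used, 26 were at least 1.5-fold higher in APOE4 than in APOE3 and 0 lower (3.43% and 2.20% of all 8815 genes), and 26 were higher than in APOE2 and 0 lower (4.14% and 3.85% of all genes). APOE2 was above APOE3 by that much for 3 genes, Egr3, Nr4a2 and Ier3, and below it for Arc (2.50% and 3.43% of all genes). The median log2 ratio of APOE4 to APOE3 was 0.90, against -0.10 for all genes. Rnd1 and Myc were too low to be used.

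In macrophage-like cells APOE4 was the highest library for 17 of the 34 genes used, APOE3 for 14 and APOE2 for 3. The same count was not made over all genes of the class, so it cannot be set against them. Of the 34 genes, 10 were at least 1.5-fold higher in APOE4 than in APOE3 and 3 lower (11.7% and 10.5% of all 8504 genes), and 8 were higher in APOE4 than in APOE2 and 0 lower (12.7% and 8.73%). The 10 include Myc, which passed the filter only with APOE4 counted. APOE2 was above APOE3 for 2 genes and below it for 9 (8.48% and 11.2%). The balance of APOE4 against APOE3 turned with the choice of cells, from 10 higher and 3 lower to 6 higher and 8 lower, both with classes set by each cell's own markers and with smooth muscle RNA-rich cells removed, and to 7 and 7 with the highest Scrublet scores removed. Shares of all genes under these other choices are not given, so the counts cannot be set against them. The median log2 ratio of the 34 genes was 0.07 for APOE4 to APOE3 and -0.28 for APOE2 to APOE3, against -0.03 for all genes in both. These values rest on 127 cells in APOE3 and 170 in APOE4, and Rnd1 was too low to be used.

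**Figure D4:**
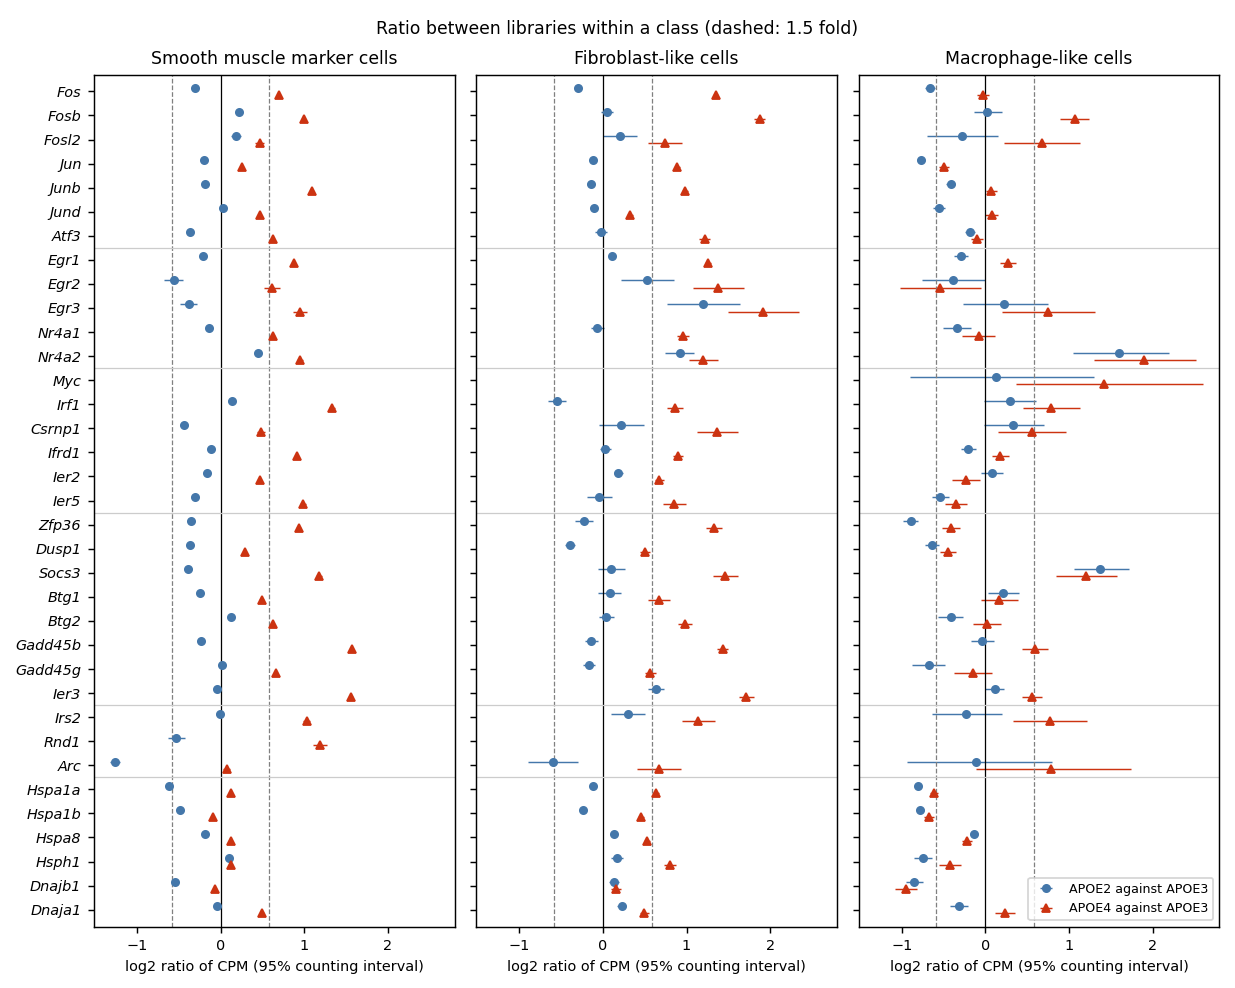
Log2 ratio of CPM of APOE2 (circles) and APOE4 (triangles) to APOE3 for each gene within smooth muscle marker, fibroblast-like and macrophage-like cells, with 95% counting intervals and dashed lines at 1.5-fold. The APOE4 points of the immediate early genes lie right of 0 throughout the first 2 panels, and in the macrophage-like panel Hspa1a, Hspa1b and Dnajb1 lie left of the line in APOE4 and APOE2.

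Among the AP-1 genes the size of the APOE4 ratio differed by family member. In smooth muscle marker cells the APOE4 to APOE3 log2 ratio was 1.09 (1.08 to 1.10) for Junb, 0.99 (0.97 to 1.01) for Fosb, 0.70 (0.69 to 0.70) for Fos and 0.62 (0.61 to 0.63) for Atf3. Those of Fosl2, Jun and Jund were smaller, at 0.47, 0.26 and 0.47. In fibroblast-like cells Fosb led at 1.87 (1.81 to 1.94), followed by Fos at 1.35 (1.32 to 1.38), Atf3 at 1.22 (1.15 to 1.28), Junb at 0.98 (0.94 to 1.02) and Jun at 0.89 (0.86 to 0.92). Jund was again the smallest (0.32), and Fosl2 was at 0.74 (0.54 to 0.94).

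In macrophage-like cells the AP-1 genes did not move together. Fosb, at 317, 312 and 654 CPM, had an APOE4 to APOE3 log2 ratio of 1.07 (0.89 to 1.24), and Fosl2 one of 0.67 (0.23 to 1.13). Jun was lower in APOE4 than in APOE3 (-0.50 (-0.55 to -0.44)), and Fos was level (-0.03 (-0.09 to 0.04)). In APOE2 both Fos (-0.66 (-0.72 to -0.60)) and Jun (-0.77 (-0.81 to -0.72)) were more than 1.5-fold below APOE3. APOE2 was the lowest library for Fos and Jun in all 3 classes.

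The Egr and Nr4a genes were all highest in APOE4 in smooth muscle marker and in fibroblast-like cells. In smooth muscle marker cells the APOE4 to APOE3 log2 ratio was 0.95 (0.92 to 0.99) for Nr4a2, 0.95 (0.86 to 1.04) for Egr3, 0.87 (0.86 to 0.88) for Egr1, 0.63 (0.61 to 0.65) for Nr4a1 and 0.62 (0.52 to 0.71) for Egr2. In fibroblast-like cells Egr3 had the highest ratio of all the genes used, 1.91 (1.49 to 2.35), on 57 UMIs in APOE3 and 270 in APOE4. It was at 13.4, 5.84 and 21.9 CPM and passed the filter only with APOE4 counted, so the filter favoured this rank. Rnd1, which the filter left out, had a ratio of 2.33 on 11 UMIs in APOE3 and 70 in APOE4. The others there were Egr2 at 1.38 (1.08 to 1.68), Egr1 at 1.25 (1.22 to 1.29), Nr4a2 at 1.20 (1.02 to 1.37) and Nr4a1 at 0.96 (0.89 to 1.04).

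Nr4a2 and Egr3 were also higher in APOE2 than in APOE3 in fibroblast-like cells, by 0.92 (0.75 to 1.09) and 1.19 (0.77 to 1.64). APOE3 was the lowest library for Nr4a2 in all 3 classes. In macrophage-like cells its log2 ratio was 1.89 (1.30 to 2.52) for APOE4 and 1.598 (1.05 to 2.20) for APOE2, from 313, 29 and 133 UMIs. Nr4a2 amounted there to 60.8%, 27.3% and 52.4% of its smooth muscle level. The summed smooth muscle markers stood at 12.8%, 24.5% and 17.8% of theirs in macrophage-like cells. Egr3 was at 0.75 (0.20 to 1.31) for APOE4 there, and Egr1, Egr2 and Nr4a1 were all within 1.5-fold of APOE3 in both other libraries.

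Of the other regulators, Irf1 had the highest ratio in smooth muscle marker cells, 1.34 (1.30 to 1.37), followed by Ier5 at 0.98 (0.95 to 1.02) and Ifrd1 at 0.91 (0.90 to 0.93). Csrnp1 and Ier2 were within 1.5-fold of APOE3 (0.48 and 0.47). In fibroblast-like cells the order was Csrnp1 at 1.36 (1.12 to 1.61), Ifrd1 at 0.90 (0.83 to 0.96), Irf1 at 0.87 (0.77 to 0.96), Ier5 at 0.85 (0.71 to 0.99) and Ier2 at 0.67 (0.62 to 0.73). In macrophage-like cells Myc (1.42 (0.36 to 2.60), on 10 UMIs in APOE3 and 33 in APOE4) and Irf1 (0.79 (0.45 to 1.13)) were past 1.5-fold. Myc was at 9.1, 8.32 and 22.2 CPM there and passed the filter only with APOE4 counted, so the filter favoured a high APOE4 ratio.

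The feedback genes Gadd45b and Ier3 had the highest APOE4 ratios of all genes used in smooth muscle marker cells. Gadd45b was at 1.57 (1.55 to 1.59), Ier3 at 1.56 (1.54 to 1.59), Socs3 at 1.18 (1.14 to 1.21), Zfp36 at 0.93 (0.91 to 0.96) and Gadd45g at 0.66 (0.64 to 0.68) against APOE3. For Gadd45b this is the step from 342 to 1013 CPM, with APOE2 at 291. Dusp1, at 0.29 (0.27 to 0.30), was among the lowest ratios of the immediate early genes, and Btg2 (0.62 (0.60 to 0.64)) was past 1.5-fold where Btg1 (0.49) was not.

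In fibroblast-like cells Ier3 led this group at 1.72 (1.63 to 1.80), Socs3 at 1.46 (1.32 to 1.61), Gadd45b at 1.43 (1.37 to 1.50), Zfp36 at 1.33 (1.24 to 1.42) and Btg2 at 0.98 (0.89 to 1.06). Btg1 was at 0.67 (0.53 to 0.80), while Gadd45g and Dusp1 stayed within 1.5-fold (0.57 and 0.51). In macrophage-like cells Socs3 was lowest in APOE3, with log2 ratios of 1.20 (0.84 to 1.57) for APOE4 and 1.38 (1.06 to 1.71) for APOE2. Zfp36, Dusp1 and Gadd45g were more than 1.5-fold lower in APOE2 than in APOE3 there, at -0.89 (-0.98 to -0.80), -0.64 (-0.72 to -0.55) and -0.68 (-0.88 to -0.48). APOE4 lay between APOE2 and APOE3 for all of these last 3 genes.

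Arc went its own way in smooth muscle marker cells. It was lower in APOE2 than in either other library, at -1.26 (-1.32 to -1.20) on the log2 scale against APOE3, and APOE4 was level with APOE3 (0.07 (0.03 to 0.12)). In fibroblast-like cells Arc was at -0.60 (-0.90 to -0.30) in APOE2 and 0.67 (0.41 to 0.93) in APOE4 against APOE3, on 180 to 361 UMIs per library. The APOE2 value there was 0.57 when classes were set cell by cell from markers, so its direction depends on how the cells are chosen. Rnd1 (1.19 (1.11 to 1.28)) and Irs2 (1.03 (0.99 to 1.07)) were higher in APOE4 in smooth muscle marker cells, as was Irs2 in fibroblast-like cells (1.14 (0.95 to 1.34)) and macrophage-like cells (0.77 (0.33 to 1.22)).

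The heat shock genes are given class by class, and the difference between classes was not tested. In smooth muscle marker cells none was 1.5-fold higher or lower in APOE4 than in APOE3, and the log2 ratios ran from -0.09 for Hspa1b to 0.50 for Dnaja1. Hspa1a was lower in APOE2 (-0.61 (-0.62 to -0.60)), and Dnajb1 (-0.54 (-0.56 to -0.52)) and Hspa1b (-0.48 (-0.49 to -0.47)) were lower there as well, within 1.5-fold. In fibroblast-like cells all 6 were higher in APOE4, with Hsph1 at 0.81 (0.74 to 0.88) and Hspa1a at 0.63 (0.60 to 0.67) past 1.5-fold. The near-identical Hspa1b was 1.37-fold higher there and the pair summed 1.46-fold, both short of that line.

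In macrophage-like cells APOE3 was the highest library for all heat shock genes but Dnaja1. The APOE4 to APOE3 log2 ratio was -0.95 (-1.08 to -0.81) for Dnajb1, -0.67 (-0.73 to -0.62) for Hspa1b and -0.61 (-0.66 to -0.57) for Hspa1a. APOE2 was lower, at -0.85 (-0.95 to -0.75) for Dnajb1, -0.80 (-0.84 to -0.77) for Hspa1a, -0.78 (-0.82 to -0.73) for Hspa1b and -0.75 (-0.86 to -0.64) for Hsph1. The APOE3 macrophage-like cells also had the highest share of smooth muscle marker UMIs, 1.53%, and the part of this in the result was not tested. Within APOE3 each heat shock gene was lower in smooth muscle marker than in macrophage-like cells. Hspa1a was at 2132 and 7179 CPM in these classes, and Dnajb1 at 674 and 958 CPM. With cells of other classes that held at least 100 smooth muscle marker UMIs removed, 8 of the genes rather than 3 were lower in APOE4 than in APOE3 macrophage-like cells. The share of all genes lower under that removal is not given.

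The further genes of these pathways were counted in the same way, against the shares of all genes given above for each class. In smooth muscle marker cells 14 of 25 other immediate early genes used were at least 1.5-fold higher in APOE4 than in APOE3 and 1 lower, while 0 of 14 regulators and 0 of 24 other heat shock genes were past the line in either direction. In fibroblast-like cells 14 of 24 other immediate early genes, 2 of 13 regulators and 2 of 23 other heat shock genes were higher in APOE4, and 0 of any of them lower. In macrophage-like cells, where 11.7% of all genes were higher and 10.5% lower, 10 of 26 other immediate early genes were higher and 4 lower, 3 of 13 regulators were higher and 0 lower, and 1 of 23 other heat shock genes was higher and 1 lower. Their medians for APOE4 to APOE3 in smooth muscle marker cells were 0.67 for the immediate early genes, -0.03 for the regulators and 0.10 for the heat shock genes.

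The last question was whether the APOE4 level came from a few cells or from many. Each cell was thinned to 1000 UMIs, which left out 269, 57 and 110 shallower smooth muscle marker cells. The median cell then gave 0.9%, 1.0% and 2.1% of its UMIs to the 29 immediate early genes, with quartiles of 0.5% and 1.6% in APOE2, 0.5% and 1.8% in APOE3 and 1.0% and 3.0% in APOE4. Unthinned, the medians were 0.957%, 1.01% and 2.19%. The upper quartile of APOE3 was thus below the median of APOE4, and the shift covered the middle of the distribution. In contrast, the heat shock share of the median cell was 0.5%, 0.5% and 0.6%. Fibroblast-like cells had immediate early medians of 0.5%, 0.4% and 1.3% and macrophage-like cells of 1.6%, 2.1% and 1.9%.

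The higher share in APOE4 was present within clusters. These had been made without the 35 genes but were not free of them. Arc, Csrnp1, Dnajb1, Gadd45b, Junb and Hspa1a were among the 10 genes most raised in cluster 2. Clusters 7, 8, 12 and 14 were shallow, at 0.191, 0.334, 0.557 and 0.228 of their library's median UMIs per cell. In all 13 smooth muscle clusters with at least 20 cells per library the immediate early share was higher in APOE4 than in APOE3, by 1.20-fold to 3.54-fold, and in 12 of the 13 it was higher than in APOE2. The exception was cluster 8, with 1.17% in APOE2 and 1.07% in APOE4. The clusters differed among themselves as well: cluster 6 had 2.41%, 2.71% and 3.27%, and cluster 3 had 0.787%, 0.784% and 1.53%. Cluster 13 had the highest ratio, from 0.677% in APOE3 to 2.39% in APOE4. All 3 fibroblast-like clusters also had a higher share in APOE4 than in APOE3, by 1.68-fold to 2.25-fold. For the heat shock genes APOE4 was above APOE3 in 10 of the 13 smooth muscle clusters, by 0.820-fold to 1.64-fold in all.

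Depth and mitochondrial share differed between the libraries, with a median of 12949, 19158 and 14913 UMIs and 2.39%, 1.72% and 2.95% mitochondrial UMIs in smooth muscle marker cells. Within all 6 depth bins the immediate early share was higher in APOE4 than in APOE3, by 1.52-fold to 2.27-fold, and within all 5 mitochondrial bins by 1.59-fold to 2.29-fold. The bin of lowest depth had 1.08%, 0.926% and 1.41%, and the bin of highest depth 1.35%, 1.63% and 2.59%. Between APOE2 and APOE3 the direction varied by bin, with APOE2 higher in 3 of the 6 depth bins and 2 of the 5 mitochondrial bins.

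**Figure D5:**
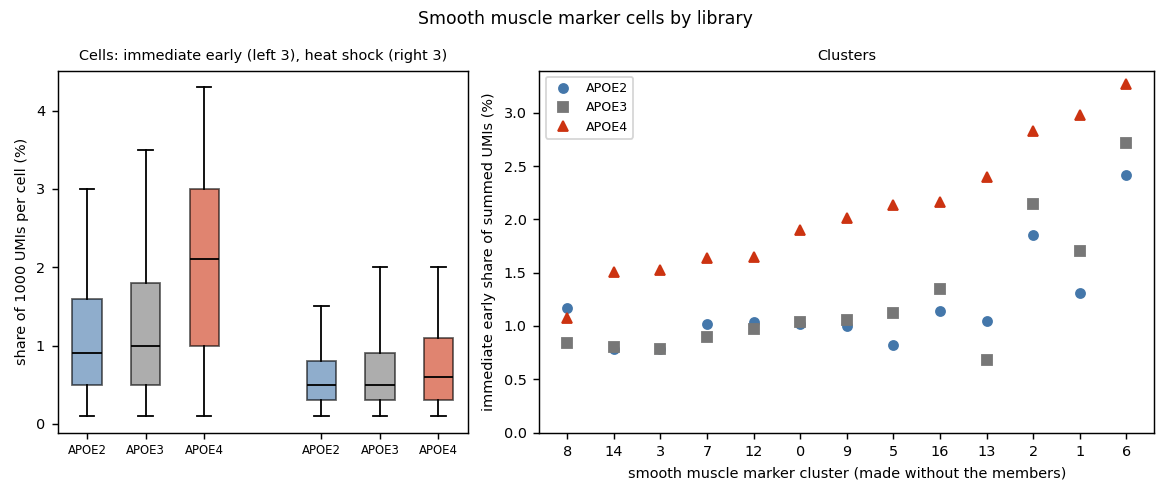
Immediate early share per smooth muscle marker cell after thinning to 1000 UMIs (left) and share of summed UMIs in each smooth muscle cluster (right), for the 3 libraries. The APOE4 median is 2.1% against 0.9% and 1.0%, and APOE4 is above APOE3 in all 13 clusters.

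Immediate early and heat shock RNA went together from cell to cell. When the smooth muscle marker cells of a library were divided into 4 groups of equal size by their immediate early share, the mean heat shock share went from 0.285% in the lowest group to 1.02% in the highest in APOE2, from 0.282% to 1.38% in APOE3 and from 0.305% to 1.19% in APOE4. Across cells, Spearman's rank correlation between the 2 shares was 0.622 (8376 cells), 0.695 (5152 cells) and 0.617 (6115 cells). These cells share a library, and their immediate early share also followed depth (rank correlation 0.0900, 0.253 and 0.264) and mitochondrial share (-0.118, -0.127 and -0.257), so the values are a description. Correlations between single genes used smooth muscle marker cells thinned to 3000 UMIs rather than 1000 (7797, 4976 and 5919 cells). Among the 35 genes, the one closest to Fos across these cells was Atf3 (rank correlation 0.608, 0.669 and 0.635), and the one closest to Hspa1a was Hspa1b (0.617, 0.745 and 0.741), its near-identical copy.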

How the data were processed

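The 3 droplet libraries, 1 per genotype and each from pooled mice, were analysed from the raw UMI counts that the authors deposited per gene and cell barcode. Per the file headers these counts were made with Cell Ranger 7.0.1, and per the labels on mm10, and they were not normalized. They precede the study's own filter on cells. The genes and lists were chosen with earlier results of these data known.

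Cells with under 200 genes or 20% or more mitochondrial UMIs were left out. Libraries were normalized with sctransform 0.4.2, integrated in Seurat 5.3.0 over 3000 features and 30 components, without the 35 genes and the other pathway genes, and clustered at resolution 0.8 in R 4.3.3, which gave 26 clusters. Smooth muscle marker clusters kept at least 8 of 10 markers at 50% or more of the CPM of all cells, with under 3 raised markers of another type. Other clusters were named "-like" from at least 3 raised markers, and unnamed clusters (778, 444 and 195 cells) were in no class. Scrublet in scanpy 1.11.5 marked 0, 0 and 3 cells as doublets and so did not work here, and doublets were kept.

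UMIs were summed per library and class. Classes were tested with edgeR 4.0.16 (quasi-likelihood, TMM, filterByExpr, library as block, two-sided). Each library is 1 pool of 1 genotype. With the library as a block, p-values measure a class difference against how class differences vary over these 3 libraries. This variation was estimated over all classes in the fit, the endothelial-like cells among them, and includes any difference between genotypes. The test and the ratio interval were checked on simulated data. Intervals are exact, at 95%, and cover counting error only. The rule for naming asked for values per library for the called genes with the largest change, up to 5 per role and direction. The text goes past it and gives the class levels of all 35 genes per library. Gene positions and overlaps came from GENCODE vM21, and promoter windows from RefSeq. The alternatives were DESeq2 1.42.0, other filters on genes and cells, no block, each library left out, other clusterings and class rules, removal of the highest 5% of Scrublet scores, the mean of each cell's CPM and a fold of 2. Removing cells with much smooth muscle RNA was added after seeing the data.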

Additional observations from a re-analysis of the deposited data

Results flagged for a closer look

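Hspa1a, an inducible HSP70 gene, stood out because its APOE4 to APOE3 log2 ratio was past 1.5-fold in opposite directions in 2 classes. The ratio was 0.63 in fibroblast-like cells and -0.61 in macrophage-like cells. Opposite signs that fell short of that line in at least 1 of these classes were also seen for other genes, Jun, Hspa1b and Dnajb1 among them. Reads of Hspa1a and its near-identical copy Hspa1b may not be told apart by the counting. Summed over the pair the ratio was 1.46-fold in fibroblast-like cells, short of that line, and 0.643-fold in macrophage-like cells. With 1 library per genotype the difference was not tested.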

How the results depend on the processing

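Over the class comparisons, 608 of 640 pairs of a call and an alternative kept the call, 32 lost it and 0 reversed. The ratios between libraries were judged by another rule, so their counts cannot be compared with those of the class calls. A ratio was said to have moved when it left its counting interval, which is narrow for genes with many UMIs. For genes past 1.5-fold, 388 ratios moved outside their counting interval under an alternative and 1 reversed. With classes set by each cell's own markers 85 moved and 48 stayed, and with ratios centred on the median gene 75 moved and 59 stayed. With the libraries left out in turn, the count of genes lower in fibroblast-like cells ran from 13 to 21 (18 with all), that of genes higher from 0 to 0, and in macrophage-like cells 9 to 15 were higher (15 with all) and 7 to 7 lower, the 9 and the 13 being those without APOE3. Without a library block 4 rather than 7 were lower in macrophage-like cells. In fibroblast-like cells 26 were lower with only the 2 compared classes in the fit, and 23 with no filter on low counts. A fold of 2 in place of 1.5 gave, in smooth muscle marker cells, 7 genes higher in APOE4 than in APOE3 (20 at 1.5-fold), 15 higher than in APOE2 (24) and 1 lower in APOE2 than in APOE3 (2). In fibroblast-like cells it gave 13 higher in APOE4 than in APOE3 (26), 14 higher than in APOE2 (26), 1 higher in APOE2 than in APOE3 (3) and 0 lower (1). In macrophage-like cells it gave 4 higher (10) and 0 lower (3) in APOE4 than in APOE3, 0 lower in APOE2 than in APOE3 (9) and 2 higher in APOE4 than in APOE2 (8). Clusters made with the genes among the features, or from merged libraries, gave 1 lower in APOE2 than in APOE3 in smooth muscle marker cells. In fibroblast-like cells the same comparison gave 3 lower for merged libraries, 0 by the mean of each cell's CPM and 0 at a minimum of 50 CPM, and with no CPM filter 5 were higher. In macrophage-like cells the mean of each cell's CPM gave 4 lower in APOE2 than in APOE3, 4 higher in APOE4 than in APOE2 and 1 lower. Removing the highest Scrublet scores gave 7 lower in APOE4 than in APOE3 and 5 higher than in APOE2. Classes set by each cell's own markers gave 6 higher and 8 lower in APOE4 than in APOE3, and removal of cells with much smooth muscle RNA gave 6 higher and 8 lower, and 5 higher than in APOE2. The Arc log2 ratio of APOE2 to APOE3 in fibroblast-like cells reversed from -0.60 to 0.57 when cells were classed by their own markers. None of these counts under an alternative has the share of all genes under the same setting beside it, so they cannot be set against all genes. Beyond the fewer genes that a stricter line leaves, the cause of these shifts was not tested. No paired analysis was possible because each genotype is 1 library, but this holds for the genotype ratios alone, since the class tests paired the classes within each library. The alternatives planned for T lymphocyte-like cells were not run. Depth limits the macrophage-like values, which rest on 1201973 to 4285544 UMIs per library.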
